A study of Mus musculus with 4 samples.

Results

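The Notch receptors Notch1 to Notch4, the ligands Jag1, Jag2, Dll1 and Dll4 and the target genes Hes1 and Hey1 were followed in 4 lung tumours of the KP mouse model of lung adenocarcinoma. These 10 genes were taken by symbol from the combined count table, which lists 39017 genes, and all 10 were found there with at least 30 reads in every tumour. The samples formed 1 group, labelled Control, so no treatment or genotype was compared and the comparisons are between genes and between tumours. All 4 came from male C57BL/6 mice of the KP genotype, in which Cre recombinase switches on an oncogene and deletes the floxed p53 gene (p53Fl/Fl). Their genotype label, heterozygous fl/wt, names no gene, while according to the methods a control could carry 1 floxed copy of Slc2a1, the gene of the glucose transporter Glut1, or none. The labels give a dose of lenti.PGK-Cre into the trachea of 1500 viral units per mouse, which differs from those in the methods. The PGK promoter is active in all cell types, so recombination was not restricted to one lung cell. Tumours were cut out 22 weeks and 5 days later and dissociated, and polyadenylated RNA of the whole cell suspension was sequenced. The labels give 4 replicates but do not say whether they came from 4 mice, and each tumour had 1 library, so differences between tumours and differences between library preparations cannot be told apart.

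Notch receptors are single-pass membrane proteins that are cut by furin-type proteases on their way to the cell surface, where they bind Delta-like (Dll) or Jagged (Jag) ligands on a neighbouring cell. Ligand binding and endocytosis expose the receptor to an ADAM protease and then to gamma-secretase, and the freed intracellular domain joins the DNA-binding protein Rbpj and a Mastermind-like coactivator to switch on genes such as Hes1 and Hey1, which encode repressors of the basic helix-loop-helix class. In the lung the pathway is known for directing airway cells toward secretory or ciliated fates, for arterial identity in endothelium and for the coating of vessels by mural cells.

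The 4 libraries held between 8151613 and 8799007 counted reads. Levels are given as CPM, the reads of a gene per 1000000 reads after TMM scaling, and the sign ± stands for the SD over the 4 tumours. At this depth a count of 0 allows a level of at most 0.330 to 0.370 CPM. Transcripts of epithelium (Epcam, Cdh1, Krt8, Krt18 and the lung factor Nkx2-1) summed to 2778 to 4262 CPM and those of alveolar type 2 cells to 31082 to 57870 CPM, so the labelled lung tissue was seen in its markers. Trp53 reads remained at 11.9 ± 1.49 CPM (SD over the tumours), and without a group that kept the gene they give no check of its deletion. Endothelial, mural, fibroblast and leukocyte transcripts were also present in every tumour. Levels in such bulk RNA cannot tell fewer cells of a type from less RNA per cell. Reads were counted without molecular identifiers, so that the intervals and the chi-square p-values given here cover counting error only. Those p-values measure the spread between these 4 libraries, which may be technical. The permutation p-values of the pairs rest on differences over the 4 tumours instead.

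Promoter sequence is shown for Notch3, Jag1 and Dll1, the members with a RefSeq promoter entry whose level differed more than 2-fold between the highest and the lowest tumour. The stretches lie upstream of the RefSeq start in GRCm38.p6 and outside the annotated gene, and capitals mark the GC box GGGCGG on either strand, the binding motif of the Sp1 factor family.
Notch3, chr17:32166891-32167140, minus strand: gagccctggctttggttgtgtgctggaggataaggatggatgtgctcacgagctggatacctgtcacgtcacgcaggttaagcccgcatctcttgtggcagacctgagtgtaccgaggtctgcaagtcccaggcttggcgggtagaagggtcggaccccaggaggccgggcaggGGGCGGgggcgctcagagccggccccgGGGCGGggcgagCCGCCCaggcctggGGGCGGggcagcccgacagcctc
Jag1, chr2:137116645-137116770, minus strand: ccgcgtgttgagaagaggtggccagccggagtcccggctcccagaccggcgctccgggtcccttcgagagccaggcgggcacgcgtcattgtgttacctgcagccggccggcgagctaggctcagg
Dll1, chr17:15376933-15377182, minus strand: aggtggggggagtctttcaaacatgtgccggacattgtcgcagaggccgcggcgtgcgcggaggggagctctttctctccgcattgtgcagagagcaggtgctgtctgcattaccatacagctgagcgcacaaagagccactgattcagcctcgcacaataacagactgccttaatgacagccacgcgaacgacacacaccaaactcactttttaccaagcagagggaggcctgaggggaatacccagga
The Notch3 stretch held 4 GC boxes and those of Jag1 and Dll1 held 0. Over the 250 bases before the start, 8 of the 10 members had an entry, with 9 windows because Dll1 has 2 starts in the table. A GC box was found in the windows of Notch1, Notch2, Notch3, Jag2 and Dll4 (5 of 9 windows, against 32.7% of all 32851 windows in the table). The core letters TGGGAA that Rbpj recognises, on either strand, were in 0 of the 9 windows and in 21.6% of all windows. The letters CACNAG, the N box bound by Hes repressors, were in 4 of the 9 windows (Notch1, Notch2, Notch3 and Dll4) and in 36.7% of all windows. No match of one motif overlapped a match of another in the members' windows. Such matches are descriptions of these letters and not sites of binding.

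Among the receptors, Notch2 was the highest and Notch1 the second, and both varied less between tumours than Notch3. Notch2 (GRCm38 chr3:98013527-98150361, plus strand) stood at 88.5, 91.0, 59.9 and 97.5 CPM in tumours 1 to 4. Tumours 1, 2 and 4 were close together and tumour 3 was the low one. Notch1 (chr2:26457903-26516663, minus strand), the receptor best known from T cell leukaemia, had 65.6, 54.8, 49.9 and 53.5 CPM, highest in tumour 1, with a log2 SD of 0.17 that ran from 0.07 to 0.20 when 1 tumour was left out. Notch3 (chr17:32120820-32166852, minus strand), a receptor known from mural cells of arteries, was at 21.3, 12.5, 7.28 and 6.42 CPM. Tumour 1 was the high one, and the ratio to tumour 4, the lowest, was 3.32 (exact 95% interval of the 2 counts, 2.45 to 4.58). Its log2 SD of 0.79 ranked 1402 among 14225 genes tested, within the top 9.86%. Notch4 (chr17:34564268-34588503, plus strand), the endothelial receptor, was at 13.6, 7.43, 11.7 and 7.85 CPM, with tumours 1 and 3 above tumours 2 and 4.

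The ligands were led by Jag1 in every tumour. Jag1 (chr2:137081456-137116644, minus strand) had 106, 87.8, 52.1 and 116 CPM, and tumour 3 lay below the others by the widest gap. The ratio of tumour 4 to tumour 3 was 2.22 (1.98 to 2.49). Jag2 (chr12:112907819-112929776, minus strand), the other Jagged ligand, was low, at 4.95, 4.07, 3.70 and 6.78 CPM from 30 to 57 reads. Dll1 (chr17:15367354-15376872, minus strand), a ligand used in somite and lymphocyte development, had 17.9, 8.83, 9.01 and 7.02 CPM, so that tumour 1 stood apart and the others lay close together. Its ratio of tumour 1 to tumour 4 was 2.56 (1.89 to 3.50). Dll4 (chr2:119325784-119335962, plus strand), the ligand of endothelial tip cells and arteries, had 20.2, 11.8, 11.6 and 13.8 CPM, again highest in tumour 1.

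The targets differed in level and in the tumour where they peaked. Hes1 (chr16:30064384-30067796, plus strand), the most widely used Notch target, was at 45.7, 44.4, 37.6 and 55.2 CPM, highest in tumour 4 and lowest in tumour 3 with a ratio of 1.47 (1.27 to 1.70). Hey1 (chr3:8663359-8667256, minus strand), a target known from vessels and heart, was at 5.94, 3.48, 8.76 and 4.88 CPM. It was the only one of the 10 members whose highest value was in tumour 3, and the ratio of tumour 3 to tumour 2 was 2.51 (1.62 to 3.99) on 71 and 30 reads.

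**Figure D1:**
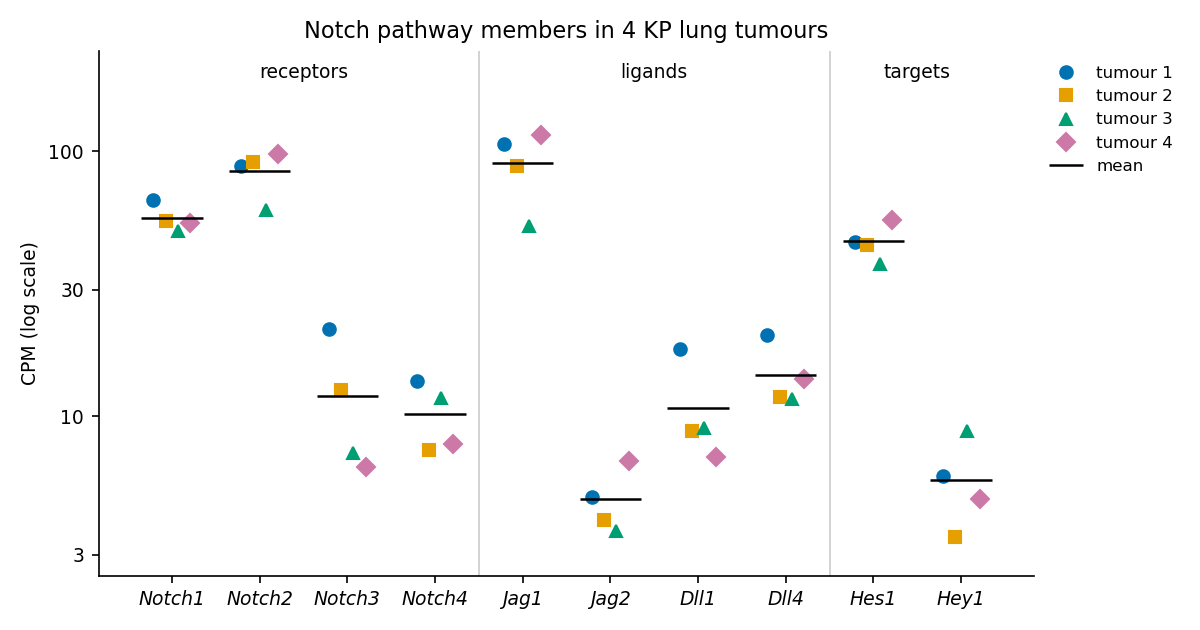
CPM of each member in each of the 4 tumours on a log axis, with the mean over tumours as a line. Notch2, Jag1, Notch1 and Hes1 lie between 37.6 and 116 CPM, and the other 6 members between 3.48 and 21.3 CPM.

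Beyond counting noise, all 10 members differed among the 4 tumours (Pearson chi-square of the counts against the scaled library sizes, Benjamini-Hochberg adjusted over 14225 genes). The adjusted p ran from 2.88e-45 for Jag1 to 0.0290 for Jag2. This share reads against a background of 76.7% of all genes tested that were called the same way. The highest tumour exceeded the lowest more than 2-fold in 4 members, Notch3, Dll1, Hey1 and Jag1, where the background was 28.1%. The median log2 SD was 0.40 over the members and 0.29 over all genes tested, and 8 of the 10 members lay above the latter. Against genes of like level, 3 members had a biological coefficient of variation above the fitted trend, Notch3 with 45.6% against 36.3%, Jag1 with 28.4% against 23.0% and Dll1 with 39.0% against 37.5%. The other members lay below the trend. The share of all genes tested that lay above it was not computed, so this count has no background beside it. Without tumour 1 the chi-square call was lost for Notch1, Dll1 and Dll4, and without tumour 3 for Notch2, Jag2 and Hey1. Without tumour 4 it was lost for Jag2. The 7 members still called without tumour 1 or without tumour 3 read against 62.2% and 62.4% of all genes tested in these fits. The number of members past 2-fold fell to 2 without tumour 1 (Jag1 and Hey1), where 17.7% of all genes tested were past it. It also fell to 2 without tumour 3 (Notch3 and Dll1), where that share was 16.1%.

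The members fell into different patterns over the tumours. Notch1, Notch3, Notch4, Dll1 and Dll4 had their highest value in tumour 1, which is 5 of 10 members against 31.4% of all genes tested. Tumour 1 was also the extreme in some cell markers, with an alveolar type 2 sum of 31082 CPM against 50731 to 57870 in the others. Of the 6 markers in that sum, 4 were lowest in tumour 1 and 2 in tumour 3. Tumour 1 also had a basal sum of 29.2 CPM against 0.93 to 2.97 in the others. Of the 4 basal markers 2 reached a mean of 1 CPM, Krt14 and Krt6a, and these carried that sum in tumour 1. The other basal markers were low, with Krt5 at 0.44 CPM in tumour 1. Trp63 was at 0 CPM there and highest in tumour 4 at 1.07 CPM. The basal sum is thus no measure of basal cells in tumour 1. Notch2, Jag1, Jag2 and Hes1 had their highest value in tumour 4 and their lowest in tumour 3, 4 of 10 members against 6.69% of all genes tested. This grouping was made after the values were seen, and no test was made of it. Tumour 3 held the lowest value of 6 members, Notch1 and Dll4 in addition to those 4, against 32.5% of all genes tested. In none of the 10 members was tumour 1 the lowest, and only Hey1 was highest in tumour 3. The shares of all genes tested that were lowest in tumour 1 or highest in tumour 3 were not computed, so these counts have no background beside them.

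**Figure D2:**
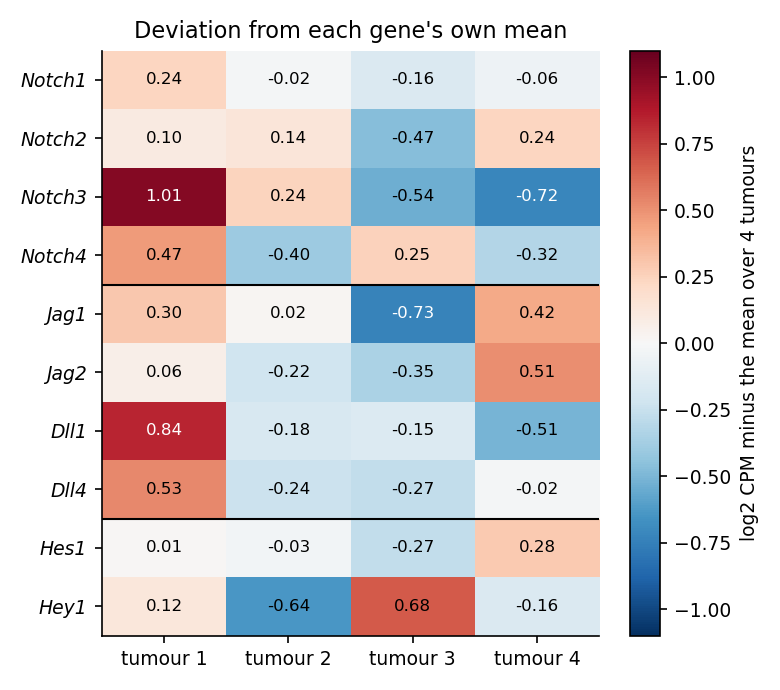
Log2 CPM of each member minus its own mean over the 4 tumours, red above and blue below the mean. The widest deviations are those of Notch3 (1.01) and Dll1 (0.84) in tumour 1 and of Jag1 (-0.73) in tumour 3 and Notch3 (-0.72) in tumour 4.

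Levels were compared between genes per kilobase of exon, since a long transcript yields more reads. On this scale the order was Hes1 (22.4 ± 3.55 CPM per kilobase), Jag1, Notch2, Notch1, Dll4, Dll1, Hey1, Notch3, Notch4 and Jag2 (0.700 ± 0.197). Hes1 lay within the top 17.4% of the 14100 genes with a length, Jag1 within the top 25.4% and Notch2 within the top 45.1%, whereas Jag2 ranked 12923 of the 14100. Neighbours in this order were set apart by the SD of their difference over the 4 tumours. Hes1 exceeded Jag1 by 0.58 ± 0.33 log2 units, Jag1 exceeded Notch2 by 0.95 ± 0.23 and Notch2 exceeded Notch1 by 0.97 ± 0.27, each in 4 of 4 tumours. Dll4 exceeded Dll1 by 0.61 ± 0.34, also in 4 of 4. Notch4 exceeded Jag2 by 0.83 ± 0.65 in 3 of 4 tumours. The differences of Notch1 to Dll4 (0.10 ± 0.22), Dll1 to Hey1 (0.50 ± 0.71), Hey1 to Notch3 (0.36 ± 1.06) and Notch3 to Notch4 (0.10 ± 0.70) were within their spread. With the longest transcript as the length the order was the same except that Notch4 came before Notch3.

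**Figure D3:**
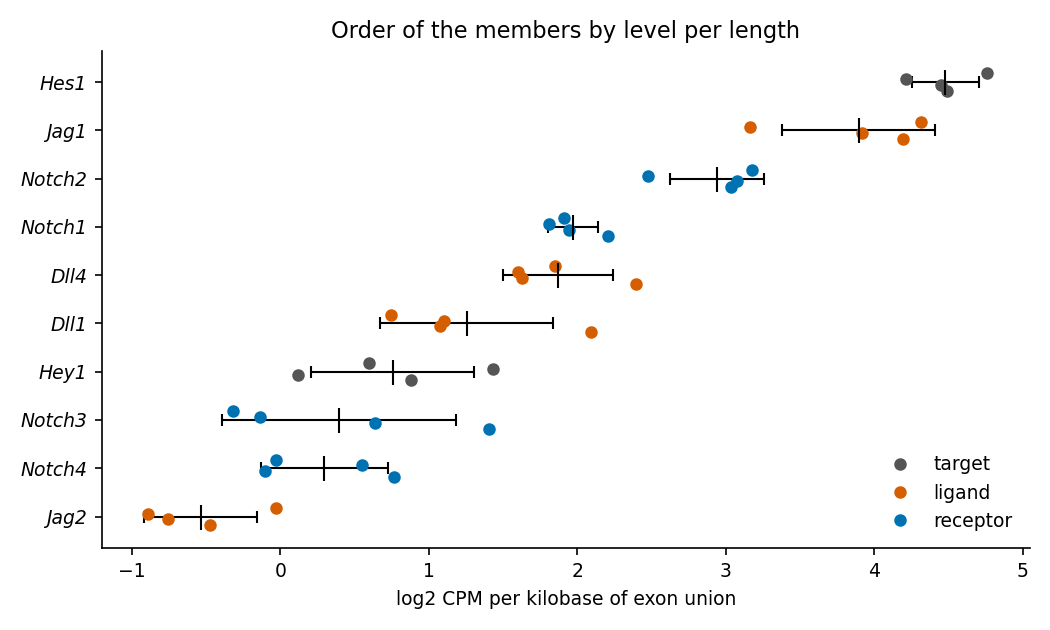
Members in order of their mean level, in log2 CPM per kilobase of exon union, with a coloured point for each of the 4 tumours, a black bar for the mean and whiskers for the SD. Hes1, Jag1 and Notch2 are separated from each other by more than the SD of their differences, and Hey1, Notch3 and Notch4 overlap.

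Within each role 13 pairs of members were compared by flipping the signs of their differences over the 4 tumours (exact permutation test, two-sided), where the smallest p is 0.125, so no pair could pass a threshold of 0.05. That smallest p was reached in 12 of the 13 pairs (adjusted p = 0.135, exact permutation test), with one direction in all 4 tumours. Jag1 exceeded Jag2 by 4.43 ± 0.30 log2 units per kilobase, 21.6-fold, and Dll4 by 2.03 ± 0.42, 4.07-fold. Hes1 exceeded Hey1 by 3.72 ± 0.70, 13.2-fold. Notch2 exceeded Notch3 by 2.55 ± 0.76 and Notch4 by 2.65 ± 0.65. Notch3 and Notch4 were the pair without a common direction, with a difference of 0.10 ± 0.70 (p = 0.875, exact permutation test). Notch3 was the higher of the pair in tumours 1 and 2 and Notch4 in tumours 3 and 4.

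The makeup of the receptor and ligand pools followed from these levels. Notch2 made up 47.9, 57.1, 48.7 and 62.1% of the summed receptor level per kilobase in tumours 1 to 4. Notch1 made up 27.4 ± 2.27%. The share of Notch3 was 15.4, 10.5, 7.89 and 5.45%, and was thus largest in tumour 1. Notch4 contributed 9.87, 6.25, 12.7 and 6.68%. Among the ligands, Jag1 made up 64.1, 72.4, 61.1 and 76.1%. Dll4 contributed 16.9 ± 3.20%, Dll1 11.5 ± 4.07% and Jag2 3.17 ± 0.612%. Summed levels of the ligands were 28.5, 20.8, 14.6 and 26.1 CPM per kilobase, lowest in tumour 3, and those of the receptors 17.1, 14.8, 11.4 and 14.6.

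**Figure D4:**
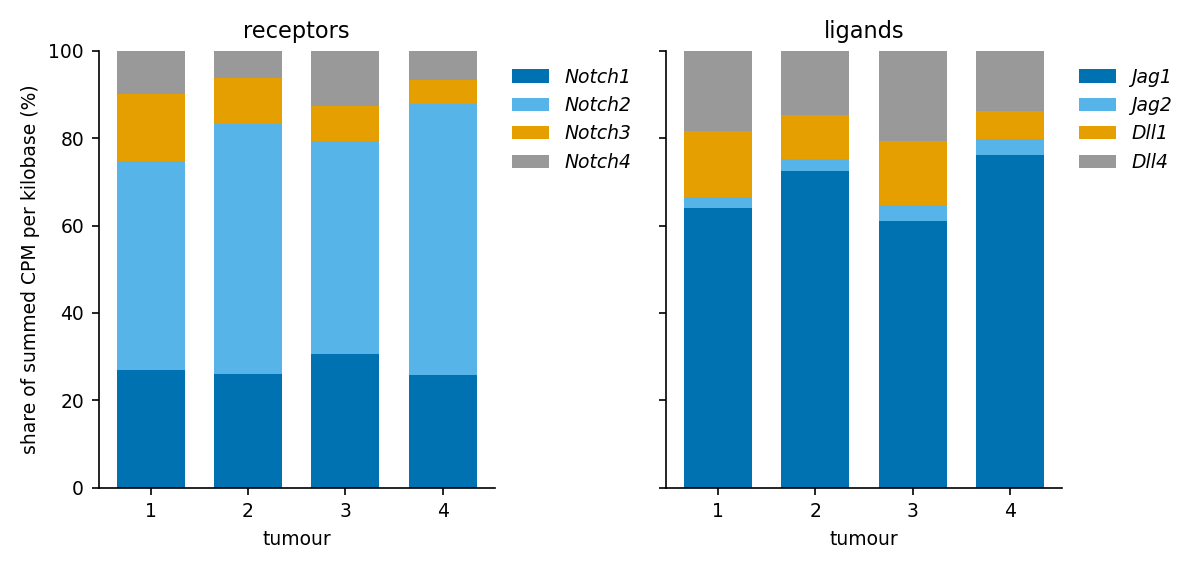
Share of each receptor and each ligand, in percent of the CPM per kilobase summed over its role, in the 4 tumours. Notch2 takes 47.9 to 62.1% of the receptor bars and Jag1 61.1 to 76.1% of the ligand bars.

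Markers of the cell types in which these genes are known were read beside the members. The 10 endothelial markers were all present at a mean of at least 1 CPM and summed to 312, 304, 391 and 294 CPM in tumours 1 to 4, with 7 of 10 highest in tumour 3. The share of all genes tested that were highest in tumour 3 was not computed, so this count has no background beside it. Of the leading ones, Pecam1 (70.5, 73.9, 110 and 78.6 CPM) was highest in tumour 3 and Kdr (36.9 ± 4.50 CPM) in tumour 2. Vwf (67.3, 61.6, 59.5 and 45.8 CPM) and Cdh5 (60.2, 48.7, 57.3 and 46.3 CPM) were highest in tumour 1, as were Notch4 and Dll4. Of the 5 arterial markers 4 reached that mean. Efnb2 made up most of their sum (132, 137, 73.9 and 139 CPM), and Gja5, Gja4 and Sox17 were highest in tumour 3, as was Hey1.

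The 8 mural markers were all present and summed to 460, 245, 581 and 260 CPM, high in tumours 1 and 3, which is also where Notch4 and Hey1 were high. Acta2, smooth muscle actin, carried that sum with 299.8, 99.0, 372 and 106 CPM. Tagln (45.9 ± 14.3 CPM) was likewise highest in tumour 3. No order of tumours was common to the list. Rgs5, a pericyte gene, had 57.3, 64.1, 90.9 and 81.2 CPM and was lowest in tumour 1, where Notch3 was highest, while Pdgfrb (37.4, 33.8, 34.2 and 24.3 CPM) was highest there. The 6 fibroblast markers were all present and summed to 531, 395, 499 and 301 CPM, and they too were split. The collagen genes Col3a1 (148 ± 28.1 CPM), Col1a2 (119 ± 44.4) and Col1a1 (68.4 ± 40.4) were highest in tumour 1, like Notch3, whereas Dcn (37.3, 57.4, 138 and 65.2 CPM) was lowest there.

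Tumour 3, where Notch2, Jag1, Jag2 and Hes1 were lowest, had the highest sum of the 4 pan-leukocyte markers (206 CPM against 87.6 to 121). Its sum of the 5 macrophage markers was also the highest (248 CPM against 148 to 169). All of these markers were present. Of the macrophage markers 4 were highest in tumour 3, a count that likewise has no background beside it, with Mrc1 the largest at 108 CPM. C1qa went the other way and was lowest there (38.6, 41.9, 25.7 and 30.4 CPM). Epcam was lowest in tumour 3 (600, 470, 218 and 371 CPM), the only 1 of the 5 markers of epithelium and lung lineage to be so. Krt8 (589 CPM) and Krt18 (640 CPM) were lowest in tumour 2 and Nkx2-1 (290 CPM) in tumour 1. Cdh1 was close to level at 863 ± 22.5 CPM. Of the 4 club cell markers, all present, the sum was 40.5 CPM in tumour 1 and 527 to 881 in the others, and the 5 ciliated markers, all present, summed to 18.0 to 35.9 CPM. Early response genes, which rise when tissue is dissociated, were highest in tumour 1 in 6 of 7 cases, against 31.4% of all genes tested. They summed to 172, 148, 122 and 136 CPM. Of the 6 neuroendocrine markers 0 reached a mean of 1 CPM, and Chga and Resp18 were at 0 in every tumour. The part of any of these cell types, or of dissociation, in the spread of the members was not tested.

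The machinery around the receptors was described by 7 lists with 59 genes, of which 50 reached a mean of 1 CPM. Of these, 44 (88.0%) differed among the tumours by the chi-square test, against the background of 76.7%, and 9 (18.0%) were past 2-fold, against the background of 28.1%. Most of the 50 genes had a mean of at least 10 CPM, and of all genes at that level 85.3% were called and 17.1% were past 2-fold. Both shares of the lists were thus near those of genes of like level. The median log2 SD over the 50 genes was 0.24, below that of the members and of all genes tested. That median was not set against genes of like level.

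In the sending cell, 6 of 7 genes of ligand ubiquitylation and endocytosis were called. Neurl1a, a ubiquitin ligase of ligands, had 3.74, 2.09, 10.1 and 3.69 CPM and was high in tumour 3. Epn1, an endocytic adaptor, lay between 63.1 and 104 CPM. All 6 glycosylation genes were called. Among them the fringe enzymes Rfng (19.5, 12.7, 9.50 and 14.0 CPM) and Lfng (8.25, 4.41, 7.03 and 5.23 CPM), which tune the choice between Delta-like and Jagged ligands, were highest in tumour 1, and Pofut1, which adds the underlying fucose, varied least (62.9 ± 5.18 CPM).

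Of the 10 cleavage genes 8 were called, all but Psen2 and Aph1c, and 4 were past 2-fold. Furin, the protease that matures the receptor, had 132, 85.5, 56.5 and 78.9 CPM, highest in tumour 1 and lowest in tumour 3 like Notch1. Psenen, a subunit of gamma-secretase, had 28.6, 20.9, 45.5 and 38.4 CPM and was highest in tumour 3. Adam17, one of the ADAM proteases, varied little (126 ± 13.2 CPM). All 13 genes of the nuclear complex were called. Rbpj itself had 181, 145, 133 and 139 CPM, again highest in tumour 1 and lowest in tumour 3. The coactivator Maml3 had 32.6, 28.2, 13.1 and 25.2 CPM and was lowest in tumour 3, whereas Maml1 was at 30.7 ± 3.64 CPM.

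Of the antagonists and turnover genes 7 of 10 tested were called, with Numbl, Dtx2 (13.5 ± 1.30 CPM) and Nrarp not called and Dtx1 below the mean of 1 CPM. Sel1l, a degradation factor of the endoplasmic reticulum related to a negative regulator of Notch in worms, had 256, 513, 365 and 291 CPM, and Dtx3l, a Deltex-family ubiquitin ligase, 29.0, 43.0, 36.5 and 40.7 CPM. Among other Hes and Hey genes, Heyl (9.03 ± 2.19 CPM) and Hes6 (37.4, 29.2, 23.4 and 29.3 CPM) were called, both highest in tumour 1. Hes2, Hes3, Hes5, Hes7 and Hey2 were below the mean of 1 CPM, and Hes3 and Hes5 were at 0 counts, which allows at most 0.370 CPM per tumour.

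The widest range in the pathway belonged to Dlk1, a membrane protein related to the Delta ligands that lacks the domain with which they bind Notch receptors. It had 20.8, 973, 211 and 186 CPM in tumours 1 to 4, so tumour 2 was the high one and tumour 1 the low one, with a ratio of 46.8. Its log2 SD ranked 136 among 14225 genes. Per kilobase its mean of 61.5 ± 75.1 CPM was above that of every member, though in tumour 1 it was 3.68. Egfl7, a secreted endothelial protein, had 25.2, 17.9, 33.7 and 29.3 CPM. Dll3, Dlk2 and Dner were below the mean of 1 CPM, and Dll3, an inhibitory ligand known from neuroendocrine tumours, was at 0 counts in every tumour.

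**Figure D5:**
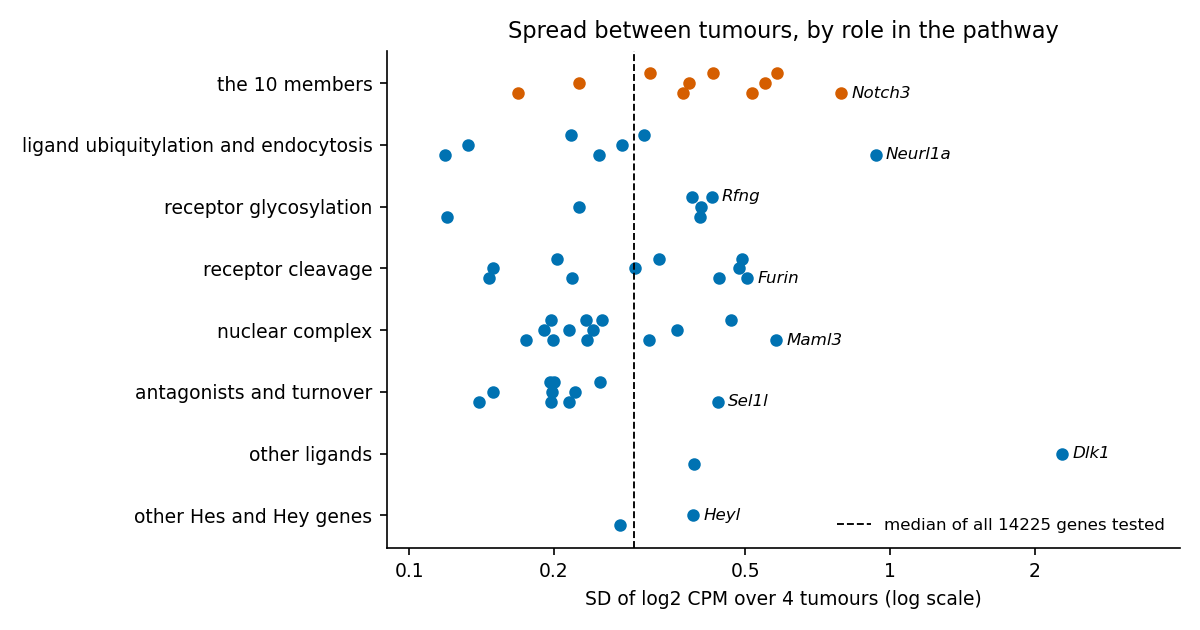
SD of log2 CPM over the 4 tumours, on a log axis, for the members (orange) and for the tested genes of each pathway list (blue), with the widest gene of each row named and the median of all 14225 genes tested as a dashed line at 0.29. Of the 10 members 8 lie to the right of the line, and Dlk1 lies farthest to the right.

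The genes whose pattern over the 4 tumours was most like that of the 3 most variable members with at least 10 CPM were sought among 10268 genes, by the root mean square distance of log2 CPM after each gene's mean was subtracted. Nearest to Notch3 were the processed pseudogene Gm9826 (0.12 log2 units), whose reads can be shared with its parent gene, and Dcaf4 (0.13), and 14 genes lay within 0.2. Zfp820 (0.05) and the serine protease gene Prss22 (0.05) were nearest to Dll1, with 68 genes within 0.2. Aebp1 (0.02) and the mitochondrial ribosomal gene Mrpl47 (0.03) were nearest to Jag1, with 244 genes within 0.2. With 4 tumours, such likeness is a description of 4 points per gene.

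Some reads of the members could belong to overlapping genes on the other strand, because the strand setting of the counting was not given in the sources used here. For Dll1 the opposite-strand lincRNA A930024N18Rik shares 867 exonic bases, and its own counts of 6 to 12 reads came to at most 13.2% of those of Dll1. For Dll4 the transcript Gm14207 shares 214 bases, with at most 9.24%, and for Notch1 0610009E02Rik shares 1068 bases, with at most 3.47%. These are reads assigned to the other genes, so they do not measure how many reads of the members were affected. No near-identical copy of any member's transcript was found elsewhere in the annotation.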

How the data were processed

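Polyadenylated RNA of 4 tumours was sequenced from stranded libraries. The authors deposited raw counts per gene for each library and combined in 1 table, which were made with HISAT2 on mm10 and featureCounts 1.4.4 after cutadapt (version 1.4.2 in the submitters' processing notes), with the strand setting and annotation release not given in the sources used here. They also deposited a log2 expression table, scaled by TMM and transformed by voom, which served here only as an alternative. Counts were scaled by TMM (edgeR 4.0.16, R 4.3.3) to CPM. Log2 CPM had 0.5 added to each count. Genes with a mean of at least 1 CPM (14225 of 39017) were tested for spread among tumours by Pearson's chi-square with 3 degrees of freedom, adjusted by the Benjamini-Hochberg method, with 0.05 as the threshold (scipy 1.17.1). The procedure was run on simulated counts that held counting noise only, apart from 200 genes each changed in 1 tumour. Such counts lack the wider spread of real libraries, so this run checked the procedure and is no support for the calls. Fold ranges are ratios of CPM with exact 95% intervals conditional on the counts. The highest and lowest tumour were chosen from these same counts, which the intervals do not allow for. Calls past 2-fold used CPM with 0.5 added to each count. Biological coefficients of variation came from edgeR. Lengths per gene were the union of exons in GENCODE M21 (GRCm38, the build of the files), which listed 37607 of the gene IDs. Copies were searched with BLAST 2.17.0, and promoter windows came from RefSeq (GRCm38.p6).

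The members, the pathway and marker lists and the tests were chosen with earlier results of these data known. Named were all members, the 2 genes of largest and the 1 of smallest log2 SD in each pathway list at a mean of at least 1 CPM, up to 4 leading genes of each marker list set beside a member, and the nearest genes in likeness. Some items that this rule or the labels would name are not reported here. Named beyond this rule, after their values were seen, are Rbpj, Kat2b, Trp53 and the genes not tested or not called. So are the single markers Gja4, Gja5, Sox17, Nkx2-1, Chga, Resp18, Krt14, Krt6a, Krt5 and Trp63. The promoter motifs and the grouping by highest and lowest tumour were added then too. Summed CPM of the marker lists that are not set beside a member were 5.92 to 20.9 for T cells, 9.68 to 48.3 for B and plasma cells and 1036 to 1836 for alveolar type 1 cells. Alternatives were DESeq2 1.42.0 size factors, total counts only, no filter or a mean of at least 10 CPM, 2 added to each count, a deviance test, the deposited log2 values, other lengths and leaving out each tumour.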

Additional observations from a re-analysis of the deposited data

Results flagged for a closer look

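Neurl1b, a ubiquitin ligase of Notch ligands, had 33.3, 33.2, 32.7 and 28.1 CPM in tumours 1 to 4. Tumour 4, with 28.1 CPM, lay farther from the others than Dixon's 95% limit for 4 values allows, and the other 3 lay within 32.7 to 33.3 CPM. The gene was the 1 among the 7 of its list that the chi-square test did not call (adjusted p = 0.191 over all genes tested). Kat2b, an acetyltransferase that joins the Notch coactivator complex, passed the same limit, with 73.0 CPM in tumour 1 against 112, 117 and 109 CPM in tumours 2 to 4, and it was called by the chi-square test (adjusted p = 6.36e-22). These were 2 of 71 values examined in this way, the 10 members, their 8 shares, the 50 pathway genes tested and 3 sums, and chance passes the limit in about 1 of 20.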

How the results depend on the processing

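All 10 members kept their call under DESeq2 size factors, total counts only, no filter and the deviance test, and the number called ran from 7 (without tumour 1 or without tumour 3) to 10 when 1 tumour was left out, where 62.2 to 71.8% of all genes tested were called. The number of members past 2-fold ran from 2 to 4 when 1 tumour was left out. That of all genes past 2-fold, 3999, ran from 2279 to 3534 (16.1 to 24.8% of those tested). It was 10459 with no filter and 1757 at a mean of at least 10 CPM, since the filter sets which genes are counted. The small difference Notch3 minus Notch4 reversed to -0.18 log2 units with the longest transcript as length, and ran from -0.11 to 0.36 when 1 tumour was left out. The share of Notch1 in the receptors became 35.0% with the longest transcript and 34.7% with no length correction, that of Jag2 in the ligands 4.07% and 4.13%, and that of Dll4 12.2% with no length correction, all by construction of the length. The other 12 pair differences kept their direction under every alternative run. No paired analysis was possible because the series has 1 group. Depth limits Jag2 and Hey1 most, with 30 to 71 reads per tumour, and the precision of every SD is limited by 4 tumours.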
